A study of Mus musculus with 16 samples.

Results

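The 10 genes described here encode dual-specificity phosphatases (Dusp) that act on MAP kinases: Dusp1, Dusp2, Dusp4, Dusp5, Dusp6, Dusp7, Dusp8, Dusp10, Dusp14 and Dusp16. They were taken by name from the 49585 genes of the deposited count table, and all 10 passed the filter on low counts that left 17741 genes for testing. Their transcripts were measured by RNA sequencing in epidermis separated by heat from SKH-1 mice, an outbred hairless stock used in studies of ultraviolet skin damage, at 8 to 12 weeks of age. There were 4 groups of 4 libraries: epidermal C/EBPβ knockout (C/EBPB -/-) 6 h after 100 mJ/cm2 of ultraviolet B (UVB), K5Cre control 6 h after the same dose, unexposed knockout, and unexposed K5Cre control. K5Cre is a transgene in which the keratin 5 promoter, active in basal keratinocytes, drives Cre recombinase, so the controls carried Cre. The labels call the knockout epidermis-specific and do not give the Cre driver or the Cebpb allele of the knockout mice, so neither is stated in the sources at hand. C/EBPβ, encoded by Cebpb, is a transcription factor of keratinocytes, and the design asks what its loss does to the epidermis and to its response to UVB.

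MAP kinases are switched on when a threonine and a tyrosine in their activation loop are both phosphorylated, and Dusp proteins remove both phosphates. Many Dusp genes are themselves induced by MAP kinase signalling, so that they act as negative feedback on the ERK, JNK and p38 branches, all of which UVB is known to activate in keratinocytes. Dusp1, Dusp2, Dusp4 and Dusp5 encode nuclear enzymes made on stimulation, of which DUSP5 acts on ERK alone and DUSP1 also acts on p38 and JNK. Dusp6 and Dusp7 encode cytoplasmic enzymes directed at ERK. Dusp8, Dusp10 and Dusp16 encode enzymes that prefer JNK and p38. Dusp14 encodes a small atypical enzyme that lacks the MAP kinase-binding domain of the others.

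The sequences just before the transcript start are shown for the genes whose windows held a cyclic AMP response element (CRE) or a serum response element core, the CArG box, and for Dusp6, the member with the highest UVB response in control epidermis, whose window held neither. CREB and ATF factors bind the CRE and serum response factor binds the CArG box, and both are known routes from MAP kinases to early genes. RefSeq start sites (GRCm38.p6) gave windows of 250 bases for 9 of the 10 genes, and Dusp4 had none in the table used. Each sequence is written 5′ to 3′ on the strand of its gene, in lower case, with matches to the CRE, to its core TGACG on either strand and to the CArG box in capitals. The Dusp1 window is chr17:26508473-26508722 (minus strand), the Dusp5 window chr19:53528895-53529144 (plus strand), the Dusp8 window chr7:142095285-142095534 (minus strand) and the Dusp6 window chr10:99262981-99263230 (plus strand).
Dusp1: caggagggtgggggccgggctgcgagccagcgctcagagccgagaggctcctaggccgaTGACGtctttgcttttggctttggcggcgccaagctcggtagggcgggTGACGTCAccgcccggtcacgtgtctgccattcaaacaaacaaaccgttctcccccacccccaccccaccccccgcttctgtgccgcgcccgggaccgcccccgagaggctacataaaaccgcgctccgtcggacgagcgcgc
Dusp5: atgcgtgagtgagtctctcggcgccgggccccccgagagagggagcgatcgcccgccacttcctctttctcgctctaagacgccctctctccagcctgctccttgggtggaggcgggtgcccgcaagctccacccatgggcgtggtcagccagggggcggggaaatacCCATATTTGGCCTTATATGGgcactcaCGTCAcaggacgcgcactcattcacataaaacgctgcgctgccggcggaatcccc
Dusp8: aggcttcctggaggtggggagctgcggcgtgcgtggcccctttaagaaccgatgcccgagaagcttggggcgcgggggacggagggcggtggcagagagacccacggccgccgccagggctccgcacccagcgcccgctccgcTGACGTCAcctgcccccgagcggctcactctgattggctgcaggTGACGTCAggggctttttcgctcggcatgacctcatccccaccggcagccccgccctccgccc
Dusp6: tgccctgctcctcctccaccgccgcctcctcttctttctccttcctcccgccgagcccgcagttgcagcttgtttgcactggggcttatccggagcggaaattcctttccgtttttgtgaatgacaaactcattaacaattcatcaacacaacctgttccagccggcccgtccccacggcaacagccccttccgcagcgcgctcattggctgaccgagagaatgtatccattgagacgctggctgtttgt

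The full CRE, TGACGTCA, stood once in the Dusp1 window, at -143 to -136 from the start, and in a pair of places in the Dusp8 window, at -107 to -100 and -63 to -56. It was present in 1.62% of the 27025 RefSeq promoter windows of the same length. The core TGACG, read on both strands and contained in the full CRE, was found in Dusp1, Dusp5, Dusp8 and Dusp16, and in 17.9% of all windows. Dusp5 held a pair of adjoining CArG boxes, CCATATTTGG at -82 to -73 and CCTTATATGG at -72 to -63, and a CArG box was found in 1.40% of all windows. No member window held the AP-1 motif TGANTCA (6.87% of all windows), the C/EBP motif TTGCNNAA (9.55%), the p53 decamer (7.18%) or an NF-kB site (3.75%), all searched on both strands. A match describes letters in a window, not binding, and the 9 windows were 56.4% to 77.2% G and C, against a median of 52.0% over all windows. Each gene had 1 window, at 1 RefSeq start. The windows of Dusp1, Dusp8, Dusp10 and Dusp14 lie inside the gene spans of GENCODE M21, which reach further upstream. Any start further upstream was not searched.

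**Figure D1:**
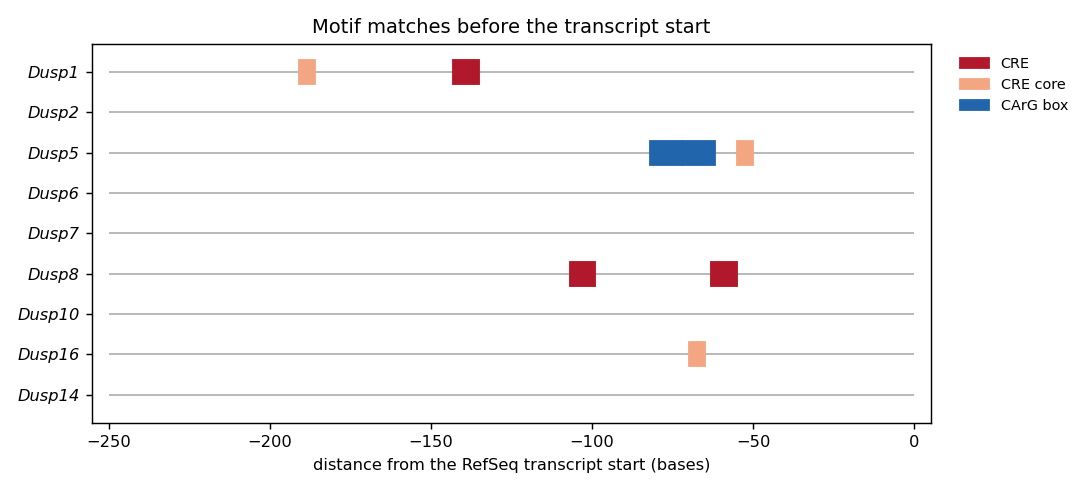
Positions of the full CRE, its core TGACG (CRE core in the legend) and the CArG box in the 250 bases before the RefSeq start of 9 phosphatase genes (horizontal axis, bases from the start). The core inside a full CRE lies under the CRE mark. Full CREs stand in Dusp1 and Dusp8, CArG boxes in Dusp5, and 5 of the 9 windows hold none of these motifs.

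The libraries held 33.0 to 53.3 M counts each. Gene positions are those of GENCODE M21 (GRCm38), each gene spanning its exons and introns. Levels are CPM, counts divided by the library size after TMM scaling, and fold changes are log2 values from edgeR's quasi-likelihood test with Benjamini-Hochberg adjustment over the 17741 genes, called at an adjusted p under 0.05. Cebpb averaged 1.93 ± 1.07 CPM in exposed knockout and 291.0 ± 28.6 CPM in exposed control libraries, and 0.574 ± 0.297 CPM in unexposed knockout and 166.1 ± 13.7 CPM in unexposed control libraries (SD, n = 4 each), so all 16 libraries matched their genotype labels. Keratinocyte markers summed to 23591 to 63909 CPM per library and T cell markers to 62.0 to 128.7 CPM, while fibroblast, endothelial and skeletal muscle markers each summed to at most 10 CPM. The labels do not say which libraries come from separate animals, so p-values measure the spread between these libraries. In bulk epidermis, fewer cells of a type and less RNA per cell cannot be told apart.

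UVB raised most of these phosphatase transcripts in both genotypes. In knockout epidermis 8 of 10 rose and none fell, and in control epidermis 8 of 10 rose and none fell, where 18.1% of all tested genes rose in knockout and 17.7% in control epidermis. The same 8 genes rose in both genotypes: Dusp1, Dusp5, Dusp6, Dusp7, Dusp8, Dusp10, Dusp14 and Dusp16. The median log2 fold change of the 10 genes was 1.26 in knockout and 1.24 in control epidermis, against 0.01 and -0.02 over all genes in knockout and control epidermis. All 10 fitted changes were above 0 with TMM, DESeq2 and upper-quartile scaling, and of the tools and scalings run only limma voom in controls put 1 of them, Dusp2, below 0. Without filtering on low counts 6 of the 10 were called in knockout epidermis. The UVB values of the genotypes rest on separate libraries.

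**Figure D2:**
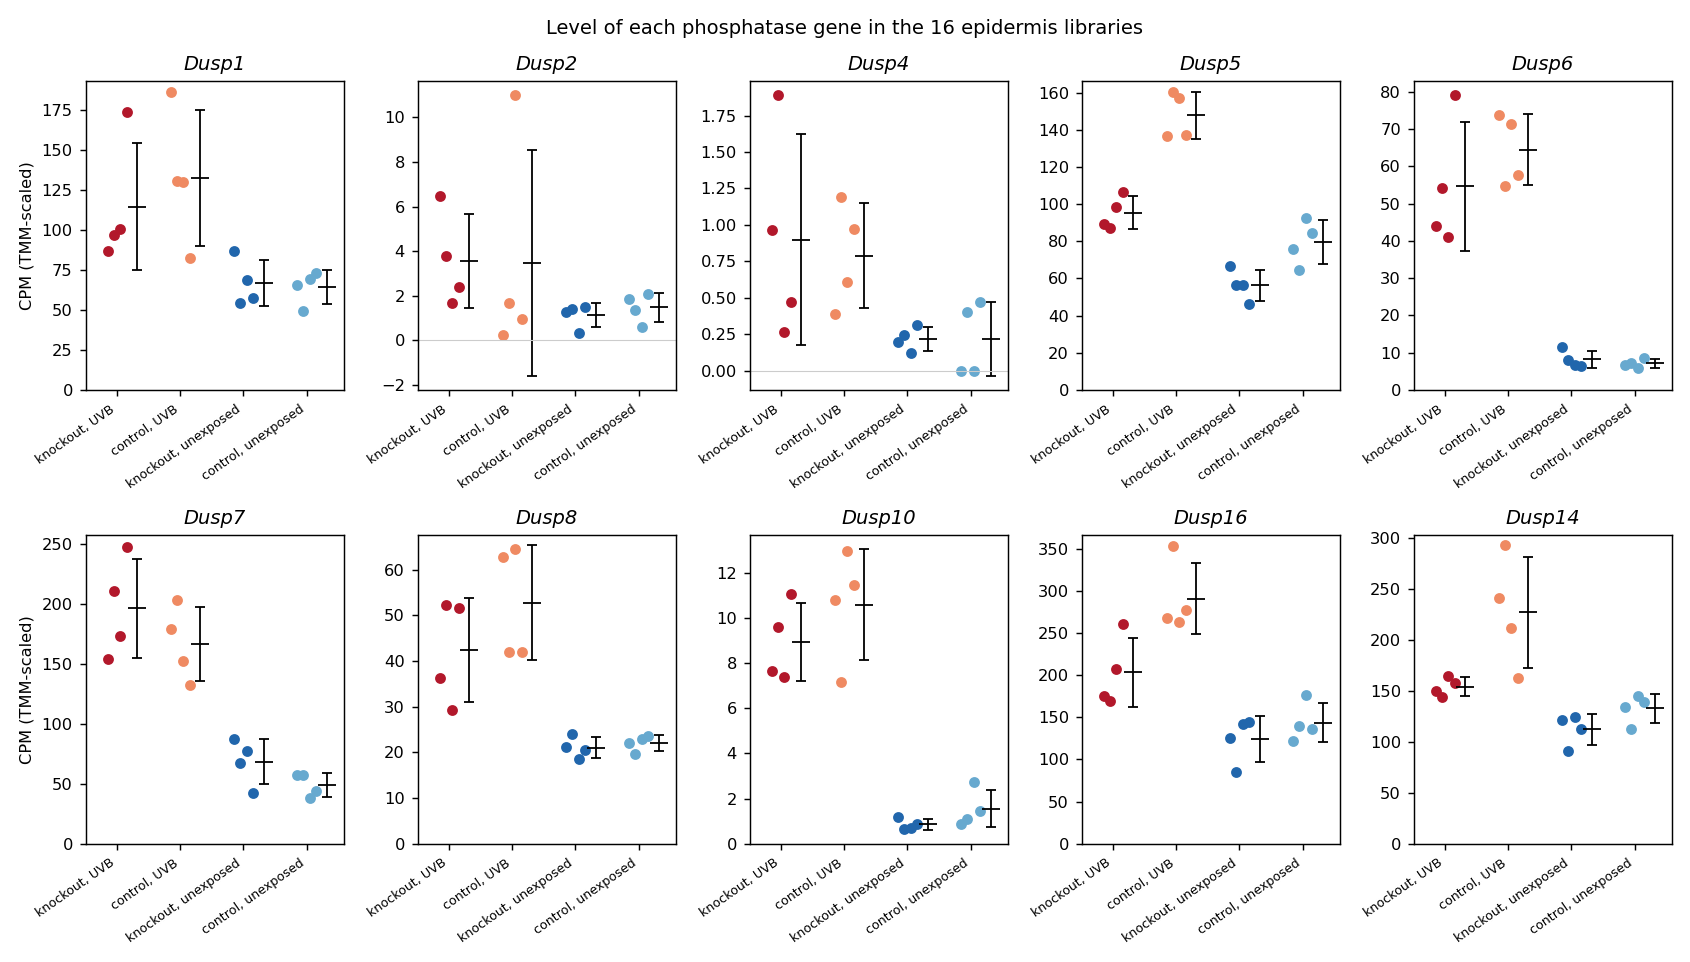
Level of each phosphatase gene in each of the 16 libraries, in CPM (vertical axis, linear, own scale per panel), with 4 points per group in the order exposed knockout, exposed control, unexposed knockout, unexposed control. The black bar beside each set of points is the mean ± SD (n = 4). Dusp6 and Dusp10 show the widest gap between exposed and unexposed libraries, while Dusp5 is lower in all 4 exposed knockout libraries than in any exposed control library.

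Dusp6 (ENSMUSG00000019960, chromosome 10, 99263231 to 99267489), a cytoplasmic ERK phosphatase gene, was among the most responsive members. Exposed knockout libraries had 43.9, 54.2, 41.1 and 79.2 CPM, against 11.6, 8.07, 6.66 and 6.56 CPM in unexposed knockout libraries. Exposed control libraries had 73.8, 54.8, 71.4 and 57.8 CPM, against 6.82, 7.25, 5.79 and 8.70 CPM in unexposed control libraries. The exposed and unexposed ranges were far apart in both genotypes. Dusp6 rose with a log2 fold change of 2.73 (SE 0.22, adjusted p = 3.99e-08) in knockout epidermis, which is 6.61-fold. It rose with a log2 fold change of 3.17 (SE 0.23, adjusted p = 3.87e-09) in control epidermis, which is 9.0-fold.

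Dusp7 (ENSMUSG00000053716, chromosome 9, 106368632 to 106375724) encodes the other cytoplasmic ERK phosphatase and started from a higher level. It had 153.8, 210.4, 172.7 and 246.9 CPM in exposed knockout libraries, against 86.8, 67.3, 76.9 and 42.5 CPM in unexposed knockout libraries. It had 179.1, 202.6, 151.9 and 132.6 CPM in exposed control libraries, against 57.5, 57.0, 37.7 and 43.8 CPM in unexposed control libraries. Every exposed library was above every unexposed library of its genotype. The log2 fold change was 1.52 (SE 0.20, adjusted p = 1.15e-05) in knockout and 1.77 (SE 0.21, adjusted p = 1.63e-06) in control epidermis.

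Among the genes of the JNK and p38 phosphatases, Dusp10 (ENSMUSG00000039384, chromosome 1, 184013302 to 184075636) was low without UVB and changed most. Exposed knockout libraries had 7.68, 9.60, 7.41 and 11.1 CPM, against 1.18, 0.655, 0.704 and 0.875 CPM in unexposed knockout libraries. Exposed control libraries had 10.8, 7.16, 13 and 11.5 CPM, against 0.877, 1.11, 2.73 and 1.44 CPM in unexposed control libraries. Exposure separated the libraries completely in each genotype. The log2 fold change was 3.39 (SE 0.35, adjusted p = 6.29e-07) in knockout epidermis and 2.79 (SE 0.34, adjusted p = 2.37e-06) in control epidermis, or 10.5-fold and 6.92-fold in knockout and control epidermis.

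Dusp8 (ENSMUSG00000037887, chromosome 7, 142079490 to 142095843) encodes an enzyme that also prefers JNK and p38, and its window holds the pair of full CREs. It had 36.3, 52.3, 29.3 and 51.6 CPM in exposed knockout libraries, against 21.1, 24.0, 18.5 and 20.5 CPM in unexposed knockout libraries. It had 62.7, 41.9, 64.5 and 41.9 CPM in exposed control libraries, against 22.1, 19.6, 22.9 and 23.5 CPM in unexposed control libraries. The ranges did not overlap in either genotype. Dusp8 rose by a log2 fold change of 1.01 (SE 0.19, adjusted p = 0.000247) in knockout and 1.26 (SE 0.19, adjusted p = 2.2e-05) in control epidermis. An antisense-oriented transcript, Gm32786, overlaps 1.36% of the Dusp8 exon length and had 482 counts over all libraries, against 24132 for Dusp8.

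Dusp16 (ENSMUSG00000030203, chromosome 6, 134715468 to 134792625) is the third gene of this kind. It had 175.5, 169.5, 207.4 and 260.0 CPM in exposed knockout libraries, against 125.0, 84.6, 141.8 and 143.9 CPM in unexposed knockout libraries. Exposed control libraries had 267.6, 353.0, 263.5 and 277.1 CPM, against 122.2, 139.6, 176.5 and 136.3 CPM in unexposed control libraries. All exposed values lay above the unexposed values of the same genotype. The log2 fold change was 0.71 (SE 0.17, adjusted p = 0.00274) in knockout and 1.01 (SE 0.17, adjusted p = 9.78e-05) in control epidermis.

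Of the 4 nuclear inducible genes, Dusp1 and Dusp5 rose and Dusp2 and Dusp4 were not called in either genotype. Dusp1 (ENSMUSG00000024190, chromosome 17, 26505590 to 26562128) is a known early-response gene. It had 86.6, 96.9, 100.8 and 173.6 CPM in exposed knockout libraries, against 86.8, 54.4, 68.5 and 57.6 CPM in unexposed knockout libraries. It had 186.0, 130.3, 129.9 and 82.5 CPM in exposed control libraries, against 65.8, 49.2, 69.4 and 73.1 CPM in unexposed control libraries. The control groups did not overlap, whereas the lowest exposed knockout library was just below the highest unexposed one. Dusp1 rose by 0.78 (log2, SE 0.24, adjusted p = 0.0169) in knockout and by 1.04 (log2, SE 0.24, adjusted p = 0.00218) in control epidermis. The call in knockout epidermis rests on single libraries: without exposed knockout replicate 4 the log2 fold change was 0.45 (adjusted p = 0.132), without unexposed knockout replicate 4 it was 0.67 (adjusted p = 0.0965), and without unexposed knockout replicate 2 it was 0.69 (adjusted p = 0.0575). With no filter on low counts it was 0.72 (adjusted p = 0.0556).

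Dusp5 (ENSMUSG00000034765, chromosome 19, 53529109 to 53542431) encodes a nuclear ERK phosphatase, and its window holds the CArG pair. It had 89.4, 87.3, 98.2 and 106.6 CPM in exposed knockout libraries, against 66.8, 56.3, 56.3 and 46.1 CPM in unexposed knockout libraries. It had 136.6, 160.2, 157.3 and 137.1 CPM in exposed control libraries, against 76.1, 64.8, 92.5 and 84.6 CPM in unexposed control libraries. Exposed and unexposed ranges were separate in both genotypes. The log2 fold change was 0.76 (SE 0.13, adjusted p = 0.000151) in knockout and 0.89 (SE 0.13, adjusted p = 2.18e-05) in control epidermis. An antisense gene covers 22.1% of the Dusp5 exon length on the opposite strand and has no row of its own in the table. Because the sources at hand do not state whether counting used strand, reads from it cannot be told apart from Dusp5 reads in that stretch.

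Dusp2 (ENSMUSG00000027368, chromosome 2, 127336159 to 127338376) is known mainly from blood cells. It had 6.46, 3.77, 1.69 and 2.37 CPM in exposed knockout libraries, against 1.29, 1.42, 0.322 and 1.5 CPM in unexposed knockout libraries. It had 0.222, 1.69, 11 and 0.938 CPM in exposed control libraries, against 1.86, 1.37, 0.607 and 2.08 CPM in unexposed control libraries. A single exposed control library set the mean of its group, and the other 3 lay within or below the unexposed range. The log2 fold change was 1.66 (SE 0.82, adjusted p = 0.143) in knockout and 1.22 (SE 0.81, adjusted p = 0.272) in control epidermis, and the control value was -0.64 without exposed control replicate 3. In knockout epidermis, where every exposed library was above every unexposed one, Dusp2 was called when only those 8 libraries were fitted (log2 1.60, adjusted p = 0.028) and when exposed control replicate 3 was left out of the fit (log2 1.61, adjusted p = 0.0474).

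Dusp4 (ENSMUSG00000031530, chromosome 8, 34807297 to 34819894), a close relative of Dusp1, was near the limit of detection. It lay between 0.267 and 1.89 CPM in exposed knockout and between 0.121 and 0.312 CPM in unexposed knockout libraries. The range was 0.388 to 1.19 CPM in exposed control libraries and 0 to 0.473 CPM in unexposed control libraries, where 2 of the 4 libraries had no count. The fitted log2 fold changes, 2.03 (SE 1.10, adjusted p = 0.181) in knockout and 1.82 (SE 1.09, adjusted p = 0.213) in control epidermis, had intervals that reached below 0. The limma voom fit alone called it in control epidermis (log2 3.18, adjusted p = 0.0374).

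Dusp14 (ENSMUSG00000018648, chromosome 11, 84048041 to 84069261) had the highest level of the 10 per kb of exon and the smallest called response. It had 149.4, 143.5, 164.7 and 158.0 CPM in exposed knockout libraries, against 121.6, 91.0, 124.3 and 112.2 CPM in unexposed knockout libraries. Exposed control libraries had 241.2, 293.1, 211.5 and 162.4 CPM, against 133.8, 112.7, 145.2 and 139.2 CPM in unexposed control libraries. The exposed values lay above the unexposed ones in each genotype. It rose by 0.45 (log2, SE 0.15, adjusted p = 0.0231) in knockout and by 0.77 (log2, SE 0.15, adjusted p = 0.000363) in control epidermis. The knockout call was lost without unexposed knockout replicate 2 (adjusted p = 0.0909) or 4 (0.069), without exposed knockout replicate 3 (0.0602) or 4 (0.0945), with upper-quartile scaling (0.0626) and with no filter on low counts (0.0577).

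**Figure D3:**
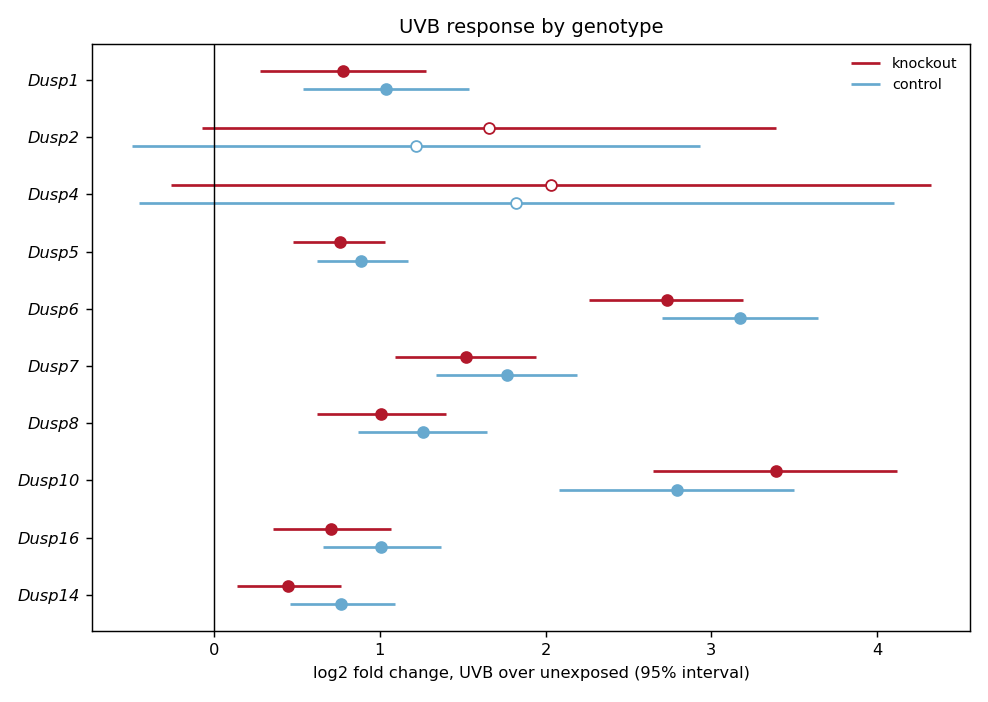
Log2 fold change of each phosphatase gene between exposed and unexposed epidermis (horizontal axis) in knockout and control mice, with 95% intervals as lines. Filled points passed the adjusted threshold and open points did not. Dusp10 and Dusp6 lie furthest to the right among the called genes, and the 2 genotypes' intervals overlap for all 10 genes.

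The UVB responses of the genotypes were then compared with each other. In the test of the difference, knockout response minus control response, 0 of the 10 phosphatase genes were called by edgeR, DESeq2 or limma voom, and 0 had an unadjusted p under 0.05. Over all genes edgeR called 0%, with 1043 genes at an unadjusted p under 0.05, and DESeq2 called 44 genes and limma voom 0. For Dusp6 the difference was -0.45 on the log2 scale (95% interval -1.06 to 0.17), for Dusp10 it was 0.60 (-0.36 to 1.55), and for Dusp14 it was -0.32 (-0.76 to 0.12). Among the other called genes the difference lay between -0.30 for Dusp16 (-0.80 to 0.20) and -0.14 for Dusp5 (-0.52 to 0.25). These intervals include differences of up to 1.06 log2 units for Dusp6 and 0.76 for Dusp14, so the responses are not shown to be alike. For Dusp2 and Dusp4 the intervals were -1.94 to 2.83 and -2.94 to 3.35.

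Between genotypes, the phosphatase genes differed less than between exposures. After UVB, 2 of the 10 were lower in knockout than in control epidermis, Dusp5 and Dusp14, and none was higher, where 2.32% of all tested genes were lower. DESeq2 also called Dusp16 lower, where it called 4.55% of all genes lower. The median log2 fold change of the 10 genes was -0.24, against 0.04 over all genes.

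Dusp5 had 89.4, 87.3, 98.2 and 106.6 CPM in exposed knockout libraries, against 136.6, 160.2, 157.3 and 137.1 CPM in exposed control libraries. The highest knockout library was well below the lowest control library. Dusp5 fell by 0.63 on the log2 scale in exposed knockout epidermis (SE 0.13, adjusted p = 0.00835), and it stayed under the threshold with any single library left out, with adjusted p-values of 0.00301 to 0.0392. Without UVB its log2 fold change was -0.49 (SE 0.13, adjusted p = 0.0546), which DESeq2 called (adjusted p = 0.0277), as did edgeR when unexposed control replicate 2 was left out (0.0375). In unexposed epidermis the groups overlapped narrowly, with 46.1 to 66.8 CPM in knockout and 64.8 to 92.5 CPM in control libraries.

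Dusp14 had 143.5 to 164.7 CPM in exposed knockout libraries, a narrow range, against 162.4 to 293.1 CPM in exposed control libraries. The groups met at the lowest control library. The fall was 0.56 on the log2 scale (SE 0.15, log2 fold change -0.56, adjusted p = 0.034). The call was lost when any of 6 of the 8 exposed libraries was left out, that is exposed knockout replicate 1 (adjusted p = 0.0886), 2 (0.111), 3 (0.0586) or 4 (0.0621) and exposed control replicate 1 (0.0725) or 2 (0.0906, log2 fold change -0.39), and with only the 8 exposed libraries in the fit (0.0687). Without UVB the value was -0.24 (SE 0.15, adjusted p = 0.594).

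Dusp16 had 169.5 to 260.0 CPM in exposed knockout libraries, against 263.5 to 353.0 CPM in exposed control libraries. The ranges did not overlap, although the gap between the nearest libraries was small. Its log2 fold change of -0.52 (SE 0.17, adjusted p = 0.0855) missed the threshold in edgeR, passed it in DESeq2 (adjusted p = 0.0488) and passed it in edgeR without exposed knockout replicate 4 (log2 -0.64, adjusted p = 0.0449). The other 7 genes had log2 fold changes of -0.32 to 0.23 after UVB, with adjusted p-values of 0.354 to 0.984.

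In unexposed epidermis 0 of the 10 phosphatase genes were called by edgeR, 3 had an unadjusted p under 0.05, DESeq2 called 1 (Dusp5) and limma voom 0. Over all genes 2.10% were called by edgeR, 171 higher and 202 lower with TMM scaling and 180 higher and 136 lower with upper-quartile scaling, and DESeq2 called 2.06% lower. Of all 17741 tested genes, 2208 had an unadjusted p under 0.05 in this comparison. The 3 phosphatase genes at an unadjusted p under 0.05 were Dusp5, Dusp10 and Dusp7. Dusp10, which had 0.655 to 1.18 CPM in knockout and 0.877 to 2.73 CPM in control libraries, had a log2 fold change of -0.84 (SE 0.34, adjusted p = 0.263). Dusp7, which had 42.5 to 86.8 CPM in knockout and 37.7 to 57.5 CPM in control libraries, had a log2 fold change of 0.48 (SE 0.20, adjusted p = 0.3). The control libraries overlapped the knockout libraries for all 10 genes.

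**Figure D4:**
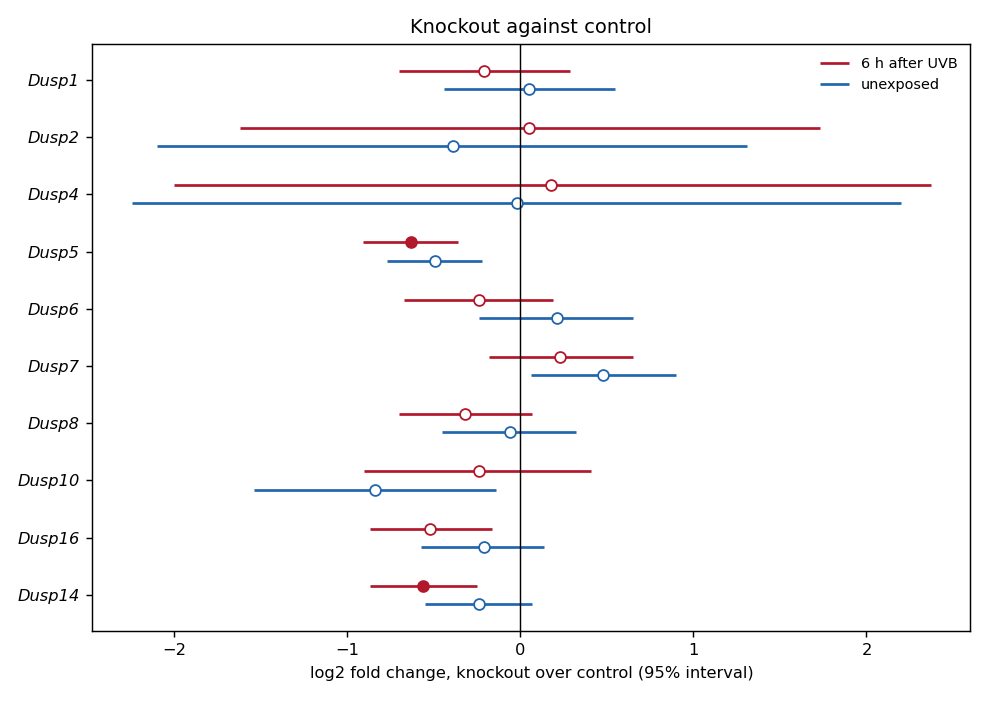
Log2 fold change of each phosphatase gene between knockout and control epidermis (horizontal axis), 6 h after UVB and unexposed, with 95% intervals as lines. Filled points passed the adjusted threshold and open points did not. Dusp5 and Dusp14 after UVB are the called genes, and the intervals of Dusp2 and Dusp4 are the widest.

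Other measures moved beside these genotype differences. Among keratinocyte markers in exposed epidermis, basal Krt5 was higher (log2 1.14, SE 0.23, adjusted p = 0.00641) and the cornified envelope gene Lor was lower (log2 -0.91, SE 0.20, adjusted p = 0.0105) in knockout than in control epidermis, and the other 5 of 7 were not called. Langerhans cell markers were higher for 4 of 7 (H2-Ab1, H2-Aa, Cd74 and Mfge8), and summed to 671.7 to 860.4 CPM in exposed knockout libraries, against 339.0 to 509.1 CPM in exposed control libraries. Of macrophage markers 1 of 5 tested, Csf1r, was higher, and none of the T cell, neutrophil, fibroblast, endothelial, muscle or melanocyte markers was called. At an equal depth of 32983160 counts, 19215 to 21567 genes were detected in exposed knockout libraries, against 16993 to 19345 in exposed control libraries, and mitochondrial genes took 5.44% to 5.99% of counts in exposed knockout libraries, against 5.24% to 9.65% in exposed control libraries. In unexposed epidermis 1 gene each of the keratinocyte (Krt14), Langerhans cell (Mfge8), neutrophil (Cxcr2) and macrophage (Csf1r) lists was higher in knockout. The part of these measures in the Dusp5 and Dusp14 results was not tested.

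With UVB, Krt15, a basal and hair follicle keratin, fell in both genotypes, with log2 fold changes of -1.29 (SE 0.26) in knockout and -1.97 (SE 0.27) in control epidermis. Lor also fell in knockout epidermis (-0.62, SE 0.19) and Krt5 in control epidermis (-0.80, SE 0.22). These were the only calls among the 7 keratinocyte markers. Krt14 had fitted values above 0 and was not called. Its log2 fold change was 0.69 (SE 0.36, adjusted p = 0.175) in knockout and 0.92 (SE 0.36, adjusted p = 0.0607) in control epidermis. Among Langerhans cell markers Cd207 was higher in both genotypes and Ptprc lower in control epidermis. Among T cell markers Trdc was higher in knockout and Cd3g lower in control epidermis, and macrophage Cd68 and endothelial Tie1 were higher in each genotype. In control epidermis neutrophil Cxcr2 and melanocyte Pmel were also higher, and no fibroblast or muscle marker was called in either genotype. At the equal depth, 19215 to 21567 genes were detected in exposed and 18807 to 21173 in unexposed knockout libraries. In control libraries 16993 to 19345 were detected in exposed and 18457 to 19943 in unexposed ones. Mitochondrial genes took 5.44% to 5.99% of counts in exposed and 4.33% to 10.18% in unexposed knockout libraries, highest in replicate 4. In control libraries they took 5.24% to 9.65% in exposed and 5.62% to 8.57% in unexposed ones. Whether any of these measures bears on the phosphatase responses was not tested.

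Levels of different genes were compared per kilobase of exon. Summed over the 10 genes, the level was 267.9 ± 39.1 CPM per kb in exposed knockout, 340.2 ± 51.3 in exposed control, 144.8 ± 19.3 in unexposed knockout and 161.0 ± 14.3 in unexposed control libraries (SD, n = 4 each). Dusp14 stood first in every group, with 79.1 ± 4.81, 116.7 ± 28.1, 57.7 ± 7.78 and 68.2 ± 7.26 CPM per kb in exposed knockout, exposed control, unexposed knockout and unexposed control libraries, and its range overlapped that of the next gene in none of them. Dusp4 stood last in every group, at 0.0797 to 0.327 CPM per kb on average.

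The middle of the order differed between groups. In exposed knockout libraries Dusp7 came second (58.4 ± 12.3 CPM per kb), above Dusp5 (38.6 ± 3.58 CPM per kb), without overlap. In exposed control libraries Dusp5 (59.8 ± 5.13 CPM per kb) and Dusp7 (49.6 ± 9.14 CPM per kb) overlapped, as they did in unexposed knockout libraries (22.8 ± 3.41 and 20.4 ± 5.66 CPM per kb). In unexposed control libraries Dusp5 (32.1 ± 4.79 CPM per kb) stood alone in second place, and Dusp1, Dusp16 and Dusp7 followed at 19.4, 18.4 and 14.6 CPM per kb, each overlapping its neighbour. Dusp8 lay above Dusp6 in both unexposed groups and below it in both exposed groups, without overlap in any of the 4.

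As a share of the summed level, the cytoplasmic ERK pair of Dusp6 and Dusp7 made up 28.1% ± 3.16 in exposed knockout, 20.7% ± 0.717 in exposed control, 15.8% ± 3.19 in unexposed knockout and 10.7% ± 2.73 in unexposed control libraries (SD, n = 4 each). Exposed and unexposed shares did not overlap within a genotype, nor did the exposed knockout shares (25.3% to 31.2%) and the exposed control shares (20% to 21.4%). The summed level of the pair did overlap, at 59.9 to 98.8 CPM per kb in exposed knockout and 58.0 to 77.9 in exposed control libraries. Neither Dusp6 (log2 -0.24) nor Dusp7 (log2 0.23) was called between the exposed genotypes. The family sum that divides the share averaged 267.9 CPM per kb in exposed knockout and 340.2 in exposed control libraries. The share of Dusp14 was 29.9% ± 3.8 in exposed knockout, 34.0% ± 3.37 in exposed control, 39.9% ± 3.06 in unexposed knockout and 42.3% ± 0.916 in unexposed control libraries. Dusp8, Dusp10 and Dusp16 together made up 14% to 15.3% on average in the 4 groups. The nuclear inducible genes together made up 28.0% to 32.4%.

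**Figure D5:**
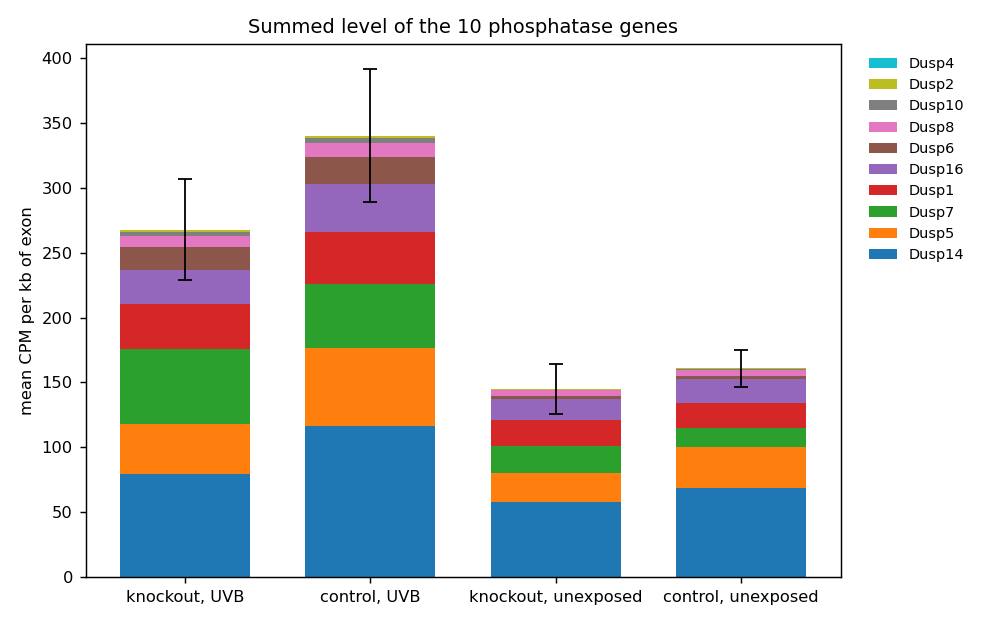
Mean level of the 10 phosphatase genes in CPM per kb of exon (vertical axis, from 0), stacked by gene for exposed knockout, exposed control, unexposed knockout and unexposed control libraries. Error bars are the SD of the summed level (n = 4). The sums are 267.9, 340.2, 144.8 and 161.0 in that order, with Dusp14 the deepest layer in each bar.

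Other genes of the same signalling system were read from lists chosen with earlier results of these data known. Of 12 tested Dusp or related genes outside the 10, UVB raised 2 and lowered 2 in knockout and raised 1 and lowered 2 in control epidermis. Over all tested genes UVB raised 18.1% and lowered 14.1% in knockout and raised 17.7% and lowered 18.0% in control epidermis, so these counts are near the shares of all genes. The second gene raised in knockout epidermis, Dusp12 (log2 0.58, SE 0.20), lost its call without any of 8 single libraries (adjusted p up to 0.122). Dusp11, whose product acts on RNA, rose in knockout (log2 1.00, SE 0.14) and control (log2 1.11, SE 0.14) epidermis, and Dusp13 fell by 1.22 and 0.93 (SE 0.23 each) and Dusp22 by 0.42 and 0.59 (SE 0.09 each) in knockout and control epidermis. After UVB, Dusp18 was lower in knockout than in control epidermis (log2 -0.70, SE 0.20, adjusted p = 0.043), a call lost when any of 7 single libraries was left out (adjusted p up to 0.141). Of 6 other phosphatases that act on MAP kinases, Ptpn5 (log2 1.42 and 1.45, SE 0.27 each) and Ppm1d, a p53 target (0.55 and 0.71, SE 0.16 each), rose in knockout and control epidermis, and the other 4 were not called. The Ppm1d call in knockout epidermis was lost without exposed knockout replicate 4 (adjusted p = 0.13).

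The transcripts of the kinases themselves were counted in the same way. In the ERK module 1 of 10 rose and 3 fell in each genotype. The median log2 fold change of this module was -0.17 in knockout and -0.16 in control epidermis. Over all tested genes 18.1% rose and 14.1% fell in knockout, and 17.7% rose and 18.0% fell in control epidermis. Among the ERK module genes that fell were Map2k5 (log2 -1.33 in knockout and -1.35 in control epidermis, SE 0.20 each) and Braf (-0.82 and -0.66, SE 0.15 each), while Mapk7 rose (0.82 and 0.87, SE 0.20 each). In the JNK and p38 module 3 of 20 rose and 7 fell in knockout, and 1 rose and 11 fell in control epidermis, with a median log2 fold change of -0.26 in knockout and -0.50 in control epidermis, where 14.1% of all genes fell in knockout and 18.0% in control epidermis. Of the 11 in control epidermis, 4 lost their call without a single library: Mapk13 (without 1 library, adjusted p = 0.086), and Map2k3, Mapk11 and Mapk14 (without any of 2 or 3 single libraries, adjusted p up to 0.115). Mapk8, which encodes JNK1, the kinase that Dusp10 and Dusp16 products act on, fell by 1.69 and 1.83 (log2, SE 0.19 each) in knockout and control epidermis. Map2k6, which encodes a p38 activator, fell by 1.64 and 1.32 (log2, SE 0.20 each) and Map3k4 by 1.41 and 1.63 (log2, SE 0.19 each) in knockout and control epidermis. Map3k11 rose by 1.13 and 1.05 (log2, SE 0.15 each) in knockout and control epidermis, and Map3k6 and Map3k7 rose in knockout epidermis (0.54, SE 0.11 and 0.58, SE 0.15), the second lost without 1 library (adjusted p = 0.0508).

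Most of the listed genes known to respond to ERK rose with UVB, as most of the phosphatase genes did. In knockout epidermis 8 of 12 rose and in control epidermis 9 of 12 rose, with none lower. Egr1 and Etv5 were not called in either genotype, Fos and Ereg not in knockout epidermis, and Myc not in control epidermis. The list's median log2 fold change was 1.37 in knockout and 1.58 in control epidermis. The Ereg call in control epidermis (log2 1.0, SE 0.30) was lost without either of 2 single libraries (adjusted p up to 0.0647). Over all tested genes 18.1% rose in knockout and 17.7% in control epidermis. Fosl1, an AP-1 subunit, had the smallest p in each (log2 3.95, SE 0.30 in knockout and 5.63, SE 0.33 in control epidermis), followed by Phlda1 (2.89, SE 0.27 and 4.29, SE 0.29). The third by p was Etv4 in knockout (1.94, SE 0.22) and Hbegf, an EGF receptor ligand, in control epidermis (2.92, SE 0.25). DESeq2 called the difference of the UVB responses for 3 genes of this list, Fosl1, Hbegf and Phlda1, all with the smaller response in knockout epidermis, where edgeR called 0. Of 7 other ERK feedback inhibitors, 1 rose in each genotype, and 2 fell in knockout and 3 in control epidermis. The share of all tested genes that fell was 14.1% in knockout and 18.0% in control epidermis. Errfi1 rose (1.43 and 1.5, SE 0.15 each) in knockout and control epidermis. Spred2 fell in knockout (-0.77, SE 0.21) and control (-0.85, SE 0.22) epidermis. Spred3 was called lower in knockout epidermis (-0.68, SE 0.20, lost without 1 library), and Spry1 (-0.99, SE 0.18) and Spred1 (-0.68, SE 0.23, lost without any of 4 single libraries) in control epidermis, and the test of the difference called none of them.

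Between genotypes few of these listed genes were called. After UVB, Map2k1 (log2 0.67, SE 0.17, adjusted p = 0.0239), Map3k6 (0.44, SE 0.11, adjusted p = 0.0279) and Etv4 (1.15, SE 0.22, adjusted p = 0.00414) were higher in knockout than in control epidermis. The Map2k1 and Map3k6 calls were each lost with any of 5 single libraries left out, with adjusted p-values up to 0.0695 and 0.119. Without UVB, Hbegf (log2 1.14, SE 0.23, adjusted p = 0.0143) and Fosl1 (1.35, SE 0.28, adjusted p = 0.0189) were higher in knockout epidermis, calls lost without 2 and 3 single libraries (adjusted p up to 0.0642 and 0.077). Both belong to the 12 ERK-responsive genes, whose median log2 fold change was 0.73 without UVB and -0.17 after UVB. The medians over all genes were 0.0 and 0.04. Without UVB, DESeq2 called 4 of the 12 higher in knockout, where it called 415 genes higher over all genes.

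Across the 16 libraries each called phosphatase gene was set against 13193 genes that averaged 1 CPM or more, on the log2 CPM scale. These Pearson correlations are descriptions over libraries that share the 4 groups, so each is given with its value after the group means were removed. Dusp6 was most like Arid5a (r = 0.993, 0.859 with group means removed), Fitm2 (0.991, 0.718) and Ccdc71l (0.991, 0.8). Dusp7 was most like Sfn (0.992, 0.935), which encodes 14-3-3 sigma, Tnks1bp1 (0.989, 0.970) and Tcim (0.989, 0.897). With group means removed, all 3 values of Dusp7 were above all 3 of Dusp6.

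Dusp14 was most like Lypd5 (0.967, 0.919), Cdsn (0.967, 0.897), which encodes corneodesmosin of the outer epidermis, and Calm4 (0.948, 0.83). Dusp16 was most like Cers3 (0.982, 0.912), a ceramide synthase gene, Cpm (0.973, 0.906) and Ugcg (0.972, 0.855). For Dusp5 the nearest genes included Rnf103 (0.966, 0.676) and Arl4a (0.950, 0.719), and for Dusp10 they were Heatr3 (0.975, 0.699), Cdhr2 (0.973, 0.405) and Vmp1 (0.972, 0.558). Dusp8 was nearest to U2af1 (0.978, 0.878), Ammecr1l (0.975, 0.842) and Dusp11 (0.971, 0.839). Dusp1 was nearest to Arpc1a (0.945, 0.915), Rab22a (0.934, 0.885) and Nup50 (0.934, 0.878).

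Within the family the highest correlation with group means removed was that of Dusp1 with Dusp6 (0.645), followed by Dusp6 with Dusp8 (0.639) and Dusp1 with Dusp14 (0.637). Dusp14 and Dusp16 had 0.579, Dusp1 and Dusp5 had 0.572, and Dusp6 and Dusp7 had 0.551. Dusp5 had 0.482 with Dusp14, below its value with Dusp1. Dusp4 averaged under 1 CPM and was not among the genes compared. Dusp6 and Dusp14 had -0.023 with group means removed and 0.732 over the 16 libraries as they stand. Dusp2 had at most 0.191, with Dusp8, and its lowest value was -0.314, with Dusp16.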

How the data were processed

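The authors deposited 1 table of raw counts, whole numbers per Ensembl gene, with 1 column for each of 16 epidermis libraries. Per the labels' protocols, RNA went through NEBNext Ultra Directional library preparation. FastQC, STAR, HTSeq and DESeq2 are named without versions, per the submitters' processing notes, and neither the genome build nor the strand setting of the counting is given in the sources used here. Columns were joined to samples by library number. Gene symbols, positions and exon lengths came from GENCODE M21 (GRCm38), matched by Ensembl ID, for 49326 of 49585 genes, and 20578 genes had no count in any library. Library totals were 33.0 to 53.3 M, which sets the counting precision, and edgeR's common coefficient of variation was 0.445. Of the counts from 2 to 101, 68.8% were even, for a reason the sources do not give. Replicates differed by more than counting error (chi-square at least 41.75 per degree of freedom, genes of 20 or more counts).

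The edgeR package (4.0.16, under R 4.3.3) was used for the count model (filterByExpr, TMM, 1 mean per group, robust quasi-likelihood F tests, two-sided, Benjamini-Hochberg over 17741 genes, threshold 0.05). The SE is the size of the log2 fold change over the square root of F, and intervals are 95%. The fitting code was tested on simulated data. Promoter windows came from a RefSeq table (GRCm38.p6). Other settings were DESeq2 1.42.0, limma 3.58.1 voom, other scalings, no filter, only the 8 libraries compared, and each library left out in turn. Python 3.11.15 with numpy 2.4.6 and pandas 2.3.3 made the tables, and matplotlib 3.10.9 drew the plots. The 10 genes, 6 pathway lists and 9 marker lists were chosen with earlier results of these data known. All 10 genes are named, with Cebpb, up to 3 called genes per list and comparison by p, and the 3 genes most like each called phosphatase gene. Some genes that these rules select are not reported here. Other listed genes and markers were named after their values were seen.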

Additional observations from a re-analysis of the deposited data

Results flagged for a closer look

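In 40 sets of 4 libraries, 1 for each gene and group, 3 single libraries stood far from the other 3 by the gap over the range of the set (Dixon's 95% critical value), where chance gives about 1 in 20 sets. Dusp1 had 173.6 CPM in exposed knockout replicate 4, and the other 3 exposed knockout libraries had 86.6 to 100.8 CPM. Dusp2 had 11 CPM in exposed control replicate 3, and the others had 0.222 to 1.69 CPM. Dusp16 had 353.0 CPM in exposed control replicate 2, and the others had 263.5 to 277.1 CPM.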

How the results depend on the processing

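Counts of called phosphatase genes after UVB against unexposed ranged from 6 to 9 in knockout and were 8 in control epidermis with any single library left out, or 9 in limma voom. For knockout against control after UVB the count was 1 with only the 8 libraries and 1 to 2 with single libraries left out, and in unexposed epidermis it was 1 in DESeq2 and 0 to 1 with single libraries left out. For all genes, DESeq2 called 778 in unexposed and 1664 in exposed epidermis for knockout against control, where edgeR called 373 and 830, and leaving out single libraries gave 134 to 435 and 419 to 1356. For the difference of the responses DESeq2 called 44, the fit with no filter 2 and fits without single libraries 0 to 2, against 0. Values that changed sign were uncalled under every setting named here, and the cause was not tested. For knockout against control, unexposed, Dusp4 (-0.02) became 0.01 with DESeq2 and with its size factors, 0.02 with upper-quartile scaling, 0.0 with only 8 libraries and 1.37 in limma voom, and ran from -0.43 to 0.68 without single libraries, as Dusp1 did from -0.10 to 0.14 and Dusp6 from -0.01 to 0.32. After UVB, Dusp4 (0.18) became -0.07 in limma voom and ran from -0.47 to 0.49, and Dusp2 from -0.40 to 1.88. For UVB in control, Dusp2 (1.22) became -0.04 in limma voom and ran from -0.64 to 1.59. For the difference of the responses, Dusp4 (0.20) became -1.45 in limma voom and ran from -0.50 to 0.62, and Dusp2 from -0.01 to 2.24. DESeq2 moved pathway list counts for knockout against control by at most 2 genes. No paired analysis was possible because the labels give no replicate numbers shared between groups. Depth limits Dusp4, with 385 counts over 16 libraries.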
